A study of Mus musculus with 3 samples.

Results

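Slc2a1, Aldoa, Pgk1, Eno1, Pkm, Ldha and Ndrg1 were followed as a named list of glycolysis and hypoxia genes, and all 7 were among the 14656 genes counted in both deposited tables. The data were single-cell RNA counts of dorsal skin epithelium from wild-type C57BL/6JOlaHsd mouse embryos at E14.5 (embryonic day), the stage at which the primary hair placodes form. Cells were sorted on the surface protein MAdCAM-1 into 2 placode-enriched libraries (MAdCAM-1-positive cells), or without that selection into 1 total epithelium library, each from the pooled skins of several littermates, and the labels give no other treatment or allele. Placode-enriched libraries 1 and 2 held 1511 and 1571 cells with medians of 21642 and 23419 UMIs (unique molecular identifiers, each marking a captured RNA molecule), and the total epithelium library held 1601 cells with a median of 21975. Barcodes shared between libraries numbered 1, 1 and 2 for the pairs, which are few of the cells in each.

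Glycolysis splits glucose to pyruvate in the cytosol, and lactate dehydrogenase turns pyruvate to lactate so that the pathway can run without oxygen. Slc2a1 (GLUT1) is the main glucose transporter of epidermal keratinocytes. Aldoa, Pgk1, Eno1 and Pkm encode glycolytic enzymes, named here in the order in which they act, and Ldha encodes the lactate dehydrogenase A subunit. The hypoxia-inducible factors, HIF-1 and HIF-2, bind DNA at elements with the core ACGTG or GCGTG, and HIF-1 raises glycolysis genes when oxygen is low. Ndrg1, a cytoplasmic protein also induced by differentiation and stress, is a standard hypoxia marker. On GRCm38 the genes lie at chr4:119108711-119137983 (Slc2a1), chr7:126795234-126800751 (Aldoa, whose symbol a further gene record at chr7:126800790-126809108 also carries), chrX:106187100-106203699 (Pgk1), chr4:150236721-150248879 (Eno1), chr9:59656368-59679375 (Pkm), chr7:46841475-46855627 (Ldha) and chr15:66929318-66969640 (Ndrg1), and all are annotated as protein-coding. UMIs were counted at the 3' end, so the alternative exons of Pkm could not be told apart, and levels were compared between cells of a gene and not between genes. Eno1b, a near-identical copy of Eno1, stood at 3.50 to 17.1 CPM (the gene's UMIs scaled to the total UMIs of the summed cells) in the class sums below, and the counting could have split reads between the pair.

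Promoter windows of 300 bases, 250 before and 50 after each RefSeq start on GRCm38.p6, were available for 6 of the 7 genes, not for Ndrg1. ACGTG and GCGTG were searched on both strands, and a palindromic CACGTG counts on both. A match was found in 10 of 12 windows of these 6 genes, against 43.8% of all 32851 windows in the table. Each of the 6 genes had a match in at least 1 window, a count per gene for which no share over all genes was taken. Both cores hold a CG pair, and the windows of these genes were 52.7% to 69.0% G or C. No share of windows matched for G and C content was taken. The windows are not separate, since 2 of Eno1 overlap and hold the same 2 matches, and 2 of Aldoa overlap and hold the same single match. Below are the windows of Slc2a1, Aldoa and Ldha, the genes with the largest differences between placode-like and basal-like cells among those with a window; Ldha stands in for Ndrg1, and the further Aldoa start was added after its match was seen. Capitals mark the matches, and a match is a description of letters, not of binding. Ldha had 7 matches in the window of its first listed start and Slc2a1 had 2. Aldoa had 0 in its first listed start and 1 in the next, at a start further downstream. The windows lie at chr4:119108495-119108794 on the plus strand (Slc2a1), chr7:126800398-126800697 on the minus strand (Aldoa, first), chr7:126799205-126799504 on the minus strand (Aldoa, next) and chr7:46845554-46845853 on the plus strand (Ldha).
Slc2a1: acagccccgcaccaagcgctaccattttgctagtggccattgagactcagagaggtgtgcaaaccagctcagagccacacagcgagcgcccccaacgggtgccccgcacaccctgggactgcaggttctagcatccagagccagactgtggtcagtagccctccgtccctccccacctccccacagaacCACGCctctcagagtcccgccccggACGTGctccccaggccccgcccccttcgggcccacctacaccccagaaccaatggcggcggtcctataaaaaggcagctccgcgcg
Aldoa, first start: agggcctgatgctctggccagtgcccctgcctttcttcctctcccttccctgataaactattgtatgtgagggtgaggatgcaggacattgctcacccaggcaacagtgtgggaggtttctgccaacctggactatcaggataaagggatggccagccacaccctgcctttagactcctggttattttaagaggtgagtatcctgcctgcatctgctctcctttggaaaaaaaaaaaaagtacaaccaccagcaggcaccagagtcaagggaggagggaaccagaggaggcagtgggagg
Aldoa, next start: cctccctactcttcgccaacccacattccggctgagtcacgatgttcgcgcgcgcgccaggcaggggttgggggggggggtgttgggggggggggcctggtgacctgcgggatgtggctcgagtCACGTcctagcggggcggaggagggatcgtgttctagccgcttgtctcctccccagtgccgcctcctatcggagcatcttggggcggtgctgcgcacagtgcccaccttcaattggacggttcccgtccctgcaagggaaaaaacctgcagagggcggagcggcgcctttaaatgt
Ldha: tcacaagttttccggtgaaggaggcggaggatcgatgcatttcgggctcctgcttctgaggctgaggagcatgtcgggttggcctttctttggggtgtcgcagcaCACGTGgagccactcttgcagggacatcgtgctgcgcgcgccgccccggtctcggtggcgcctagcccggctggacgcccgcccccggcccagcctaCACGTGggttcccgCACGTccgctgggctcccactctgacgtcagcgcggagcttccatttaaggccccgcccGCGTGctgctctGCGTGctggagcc

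Cells were clustered without the 7 genes, their lists or the markers, and named from marker genes. Placode-like cells (852, 924 and 109 in placode-enriched 1, placode-enriched 2 and total epithelium) formed 3 clusters that met 9, 8 and 5 of 9 markers, which include Dkk4, Edar and Shh. The cluster that met 5 held 34.5%, 31.2% and 34.9% of these cells and also met 5 of 7 basal markers. It met the limit for Edar but not for Dkk4 and Shh, at 98.1 and 29.7 CPM, against 642 and 144 CPM in the highest cluster. Basal epidermis-like cells numbered 262, 265 and 1089 in the same order of libraries. Cells called suprabasal-like, from markers of the differentiating layer, numbered 75, 91 and 321. A cluster of 317, 287 and 51 cells met 6 of 7 basal markers and stayed unnamed, and the 21 melanoblast-like cells were not tested. The classes were not made of the same clusters in both kinds of library. In the placode-enriched libraries 95.4% and 98.9% of basal-like cells came from 1 cluster led by mitotic genes, and the basal-like sums there held 4923 and 4816 CPM of the G2 and M phase list, against 2348 CPM in total epithelium, where 59.2% and 39.8% came from other clusters. Of suprabasal-like cells, 76.0% and 81.3% in the placode-enriched libraries came from a cluster that 3 of 8 suprabasal markers named, against 4.05% in total epithelium. Dmkn, Ovol1 and Calml3 named that cluster, while Krt1, Krt10, Krtdap, Sbsn and Cnfn fell short of the limit. Krt1 and Krt10 stood at 308 and 528 CPM in it, against 2797 and 3696 CPM in the other suprabasal-like cluster. In the suprabasal-like sums of the placode-enriched libraries Sox9 stood at 86.0 and 110 CPM, against 16.7 CPM in total epithelium.

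Against basal-like cells of the same library, placode-like cells held less Ndrg1, Slc2a1, Aldoa, Ldha and Eno1 and more Pkm, while Pgk1 did not pass the test. Ndrg1 changed the most. It stood at 6.55, 5.01 and 7.85 CPM in placode-like cells of placode-enriched 1, placode-enriched 2 and total epithelium, against 25.5, 22.6 and 31.3 CPM in basal-like cells. The groups did not overlap. The log2 fold change was -2.07 ± 0.11 (SE; edgeR quasi-likelihood test, adjusted p = 1.87e-06). In the total epithelium library the placode-like sum rested on 17 Ndrg1 UMIs. In all 16 alternatives run the call was kept, with values of -2.57 to -1.78. The unnamed cluster, which shared 6 of 7 basal markers, stood on the basal-like side, at 23.4, 24.0 and 19.7 CPM of Ndrg1 in the same order of libraries. The 20 melanoblast-like cells (pigment cell precursors) of the total epithelium library held 2 Ndrg1 UMIs, or 4.19 CPM, and Slc2a1 stood at 56.6, Aldoa at 1138 and Ldha at 1805 CPM there, in 1 library with no test.

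In the same order of libraries, Slc2a1 stood at 122, 113 and 148 CPM in placode-like cells, against 171, 167 and 204 CPM in basal-like cells. Each placode-like value was below the basal-like value of its own library, and also below every basal-like value. The log2 fold change was -0.52 ± 0.05 (edgeR quasi-likelihood test, adjusted p = 7.2e-05). Aldoa, the aldolase that cleaves fructose bisphosphate, stood at 340, 398 and 661 CPM in placode-like cells, against 489, 542 and 865 CPM in basal-like cells. The total epithelium library was highest in both classes, so the classes overlapped across libraries while each library showed the lower placode-like value. The log2 fold change was -0.47 ± 0.04 (edgeR quasi-likelihood test, adjusted p = 5.36e-05). Ldha stood at 477, 499 and 844 CPM in placode-like cells, against 624, 596 and 915 CPM in basal-like cells. Its fold change was -0.27 ± 0.05 on the log2 scale (edgeR quasi-likelihood test, adjusted p = 0.00371), and within libraries it was -0.39, -0.26 and -0.12.

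Eno1, the enolase before the last step of the pathway, stood at 364, 274 and 524 CPM in placode-like cells, against 424, 304 and 550 CPM in basal-like cells. The fold change was small, -0.16 ± 0.05 on the log2 scale (edgeR quasi-likelihood test, adjusted p = 0.023). Pkm, the pyruvate kinase that closes the pathway, was at 1198, 1175 and 1505 CPM in placode-like cells against 1043, 1059 and 1233 CPM in basal-like cells, higher within each library though the groups overlap across libraries (log2 fold change 0.20 ± 0.04; edgeR quasi-likelihood test, adjusted p = 0.00393). Pgk1 stood at 38.3, 24.8 and 98.3 CPM in placode-like cells, against 42.0, 23.01 and 71.4 CPM in basal-like cells, and its log2 fold change of 0.12 ± 0.11 did not pass (edgeR quasi-likelihood test, adjusted p = 0.402). In all, 1 of 7 genes was higher and 5 were lower, where 33.5% of the 6242 tested genes were called, 17% higher and 16.5% lower. The median log2 fold change of the 7 genes was -0.27, against -0.0025 over all tested genes. Without placode-enriched 1 the calls of Ldha (-0.20), Pkm (0.21) and Eno1 (-0.12) were lost, and without placode-enriched 2 that of Eno1 (-0.16). The G2 and M phase genes together made up 2799, 2748 and 2156 CPM of placode-like cells, against 4923, 4816 and 2348 CPM in basal-like cells, and the 6 of 9 fibroblast markers that were counted made up 1252, 1137 and 1745 CPM, against 768, 624 and 837 CPM. With only cells low in G2 and M phase genes and the unnamed cluster counted as basal, 6 genes were called in the same directions. That setting was added after the data were seen, and gave Ndrg1 at -1.86, Aldoa at -0.64, Slc2a1 at -0.47 and Pkm at 0.11. In it 207 of the 212 basal cells of placode-enriched 1 and all 211 of placode-enriched 2 were of the unnamed cluster. In those libraries it therefore compared placode-like cells almost wholly with that cluster and not with basal-like cells. The part of the fibroblast markers was not tested.

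**Figure D1:**
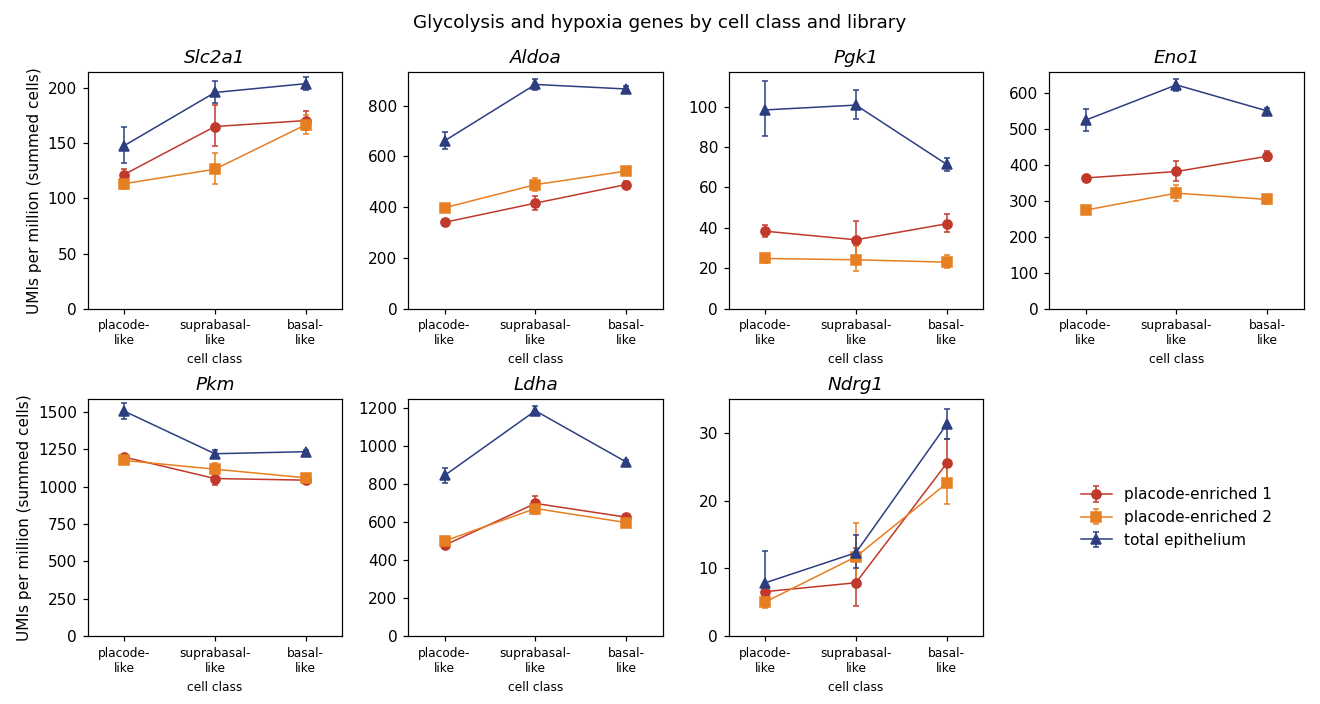
CPM in summed cells for the 7 genes, by class on the x axis, with a line and marker for each library and bars for the 95% counting interval. All 7 genes stand highest in total epithelium in every class. Ndrg1 stands at 22.6 to 31.3 CPM in basal-like cells and at 5.01 to 7.85 in placode-like cells of all libraries.

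Between suprabasal-like and basal-like cells, Ndrg1 was the 1 gene of the 7 that passed the test. Ndrg1 stood at 7.86, 11.7 and 12.3 CPM in suprabasal-like cells of placode-enriched 1, placode-enriched 2 and total epithelium, which is below each basal-like value above (log2 fold change -1.34 ± 0.16; edgeR quasi-likelihood test, adjusted p = 0.000435). It was called in all 16 alternatives run, between -1.54 and -0.87. Of the tested genes, 28.7% were called in this comparison, 13.8% higher and 14.8% lower. Ldha stood at 697, 670 and 1184 CPM in suprabasal-like cells, and its log2 fold change of 0.19 ± 0.07 did not pass (edgeR quasi-likelihood test, adjusted p = 0.0937). With the total epithelium library left out, 4 genes were called: Slc2a1 at -0.27, Aldoa at -0.23 and Ndrg1 at -1.30 were lower and Ldha at 0.12 was higher. With stricter class names, which leave out the suprabasal-like cluster of 3 markers, Ndrg1 at -1.54 and Ldha at 0.47 were called. Other lists moved in the same comparison. Of 17 dissociation and stress genes 8 were higher and 1 lower, with sums of 4082, 3557 and 4985 CPM in suprabasal-like cells of placode-enriched 1, placode-enriched 2 and total epithelium, against 3488, 3205 and 3392 CPM in basal-like cells. Of 17 G2 and M phase genes 11 were lower, and of 4 tested fibroblast markers 3 were lower. Their part in the Ndrg1 difference was not tested.

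Placode-like cells against suprabasal-like cells were lower in Ldha, Slc2a1 and Aldoa and higher in Pkm, where 33.6% of tested genes were called, 17% higher and 16.6% lower. Slc2a1 stood at 165, 126 and 196 CPM in suprabasal-like cells of the 3 libraries, Aldoa at 416, 489 and 883 CPM, and Pkm at 1054, 1116 and 1220 CPM. The log2 fold changes were -0.46 ± 0.06 for Ldha (edgeR quasi-likelihood test, adjusted p = 0.000904), -0.31 ± 0.09 for Slc2a1 (adjusted p = 0.0328 in the same edgeR fit), -0.31 ± 0.07 for Aldoa (adjusted p = 0.0103 in that edgeR fit) and 0.21 ± 0.06 for Pkm (adjusted p = 0.0219 in that edgeR fit). Ndrg1, at -0.73 ± 0.24, missed the threshold (edgeR quasi-likelihood test, adjusted p = 0.0505), and so did Eno1 and Pgk1. Without placode-enriched 1 the calls of Slc2a1 (-0.26) and Pkm (0.21) were lost and Ndrg1 (-0.95) was called, without placode-enriched 2 that of Pkm (0.26) was lost, and without total epithelium Ndrg1 (-0.77) was called. None of the 7 genes passed in edgeR's test when only cells low in G2 and M phase genes were kept, with 4 at an unadjusted p below 0.05. The log2 fold changes in those cells were -0.32 for Ldha, -0.36 for Slc2a1, -0.35 for Aldoa and 0.28 for Pkm.

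**Figure D2:**
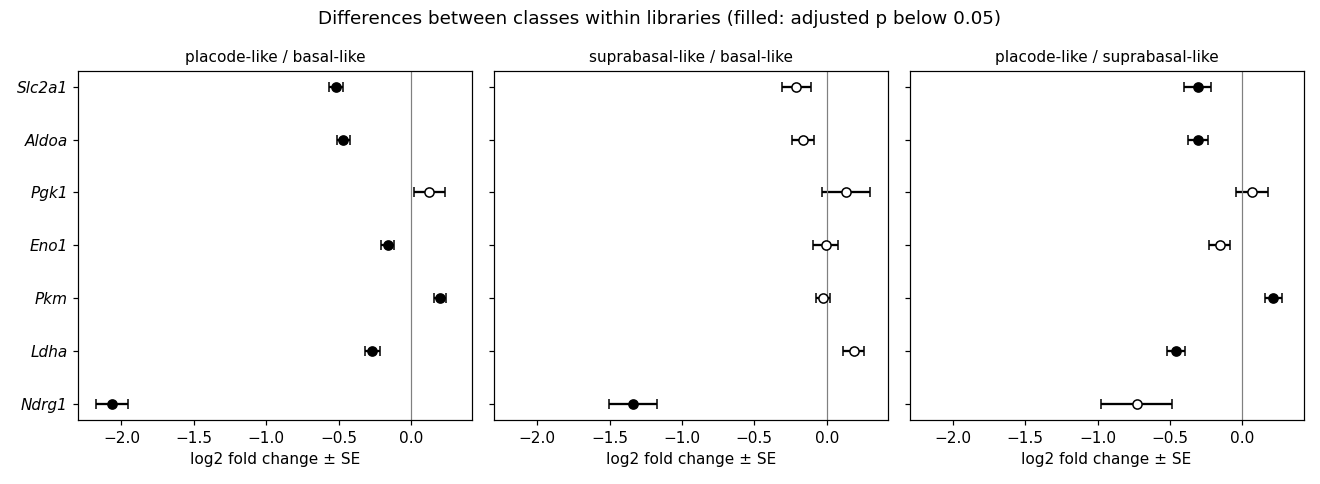
Log2 fold change with its standard error for the 7 genes in the 3 class comparisons, with filled points for an adjusted p below 0.05. Ndrg1 lies at -2.07 in placode-like over basal-like cells and at -1.34 in suprabasal-like over basal-like cells, and Pgk1 lies near 0 in all 3 panels.

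Other genes of the pathway were read from lists of transporters, enzymes and regulators, beside shares over all tested genes of 33.5% called in placode-like over basal-like cells, 28.7% in suprabasal-like over basal-like cells and 33.6% in placode-like over suprabasal-like cells. In placode-like over basal-like cells, 2 of 8 tested glucose and lactate transport genes were higher and 4 lower. The insulin-responsive transporter Slc2a4 rose by 1.06 ± 0.12 on the log2 scale and the lactate exporter Slc16a3 by 0.77 ± 0.14, while the transporter Slc2a3 was at -1.67 ± 0.22 and Slc16a1 at -0.87 ± 0.10. Of 17 tested glycolytic enzymes, which include 5 of the 7 genes, 1 was higher and 8 were lower, with Hk2 at -0.42 ± 0.09 and Ldhb at -0.31 ± 0.05. Of 9 regulators of glycolysis 0 were higher and 2 were lower, the transcription factor Myc at -1.18 ± 0.10 and the pyruvate dehydrogenase kinase Pdk1 at -0.28 ± 0.07. Of 16 side branch genes 1 was higher and 10 were lower, led by the serine synthesis genes Psph at -1.10 ± 0.06 and Psat1 at -0.80 ± 0.13. Of 8 regulators of the HIF pathway 0 were higher and 3 were lower, all of them prolyl hydroxylases: Egln3 at -1.10 ± 0.27, Egln1 at -0.34 ± 0.08 and Egln2 at -0.27 ± 0.07. Of 28 hypoxia response genes 6 were higher and 7 lower, with the repressor Bhlhe40 at 1.95 ± 0.14 and Stc2 at -1.28 ± 0.41. All of these passed edgeR's quasi-likelihood test with an adjusted p below the threshold of 0.05, and the lists hold members of the 7. In suprabasal-like over basal-like cells the transport list had 0 higher and 4 lower, with Slc2a3 at -1.09 ± 0.26 and Slc16a1 at -0.91 ± 0.10. The hypoxia response list had 5 higher and 6 lower there, with Ndrg2, a relative of Ndrg1, at 3.60 ± 0.13, Bhlhe40 at 3.01 ± 0.15, Bnip3, a mitophagy receptor, at -1.83 ± 0.22 and the collagen prolyl hydroxylase subunit P4ha1 at -1.70 ± 0.14. Against suprabasal-like cells, placode-like cells were higher in 3 and lower in 5 of 16 tested enzymes, with Aldoc, another aldolase, at -1.23 ± 0.21 and Ldhb at 0.45 ± 0.07. Of 28 hypoxia response genes there 6 were higher and 8 lower, with Ndrg2 at -3.01 ± 0.20 and P4ha1 at 1.96 ± 0.18.

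Aldoa, Eno1, Ldha and Pgk1 were lower in the placode-enriched libraries than in the total epithelium library, within every class. The comparison has 2 libraries against 1, so that sort, litter and library cannot be told apart, and the lone library is assumed to vary like the other 2. Basal-like and suprabasal-like cells also came mostly from different clusters in both kinds of library, as given above. In basal-like cells by sort 17 of 17 G2 and M phase genes were higher, and 11 of 15 S phase genes were lower and 0 higher. The part of these cluster differences was not tested. In placode-like cells the log2 fold changes were -1.58 ± 0.22 for Pgk1 (edgeR quasi-likelihood test, adjusted p = 0.00185), -0.78 ± 0.13 for Aldoa (adjusted p = 0.0102 in the same edgeR fit), -0.73 ± 0.12 for Ldha (adjusted p = 0.00801 in the same edgeR fit) and -0.66 ± 0.15 for Eno1 (adjusted p = 0.0488 in the same edgeR fit). Of the tested genes, 1.6% were called there, 0.424% higher and 1.18% lower, so that 4 of 7 stood above the background share. These 4 were also all of the calls among the 17 tested glycolytic enzymes. In basal-like cells the fold changes ranged from -1.08 ± 0.14 for Pgk1 to -0.52 ± 0.12 for Ldha, with the same 4 genes called, where 18.7% of genes were called, 10.9% higher and 7.85% lower. In suprabasal-like cells they ranged from -1.82 ± 0.18 for Pgk1 to -0.80 ± 0.12 for Ldha, again the same 4, where 15.3% were called, 8.11% higher and 7.17% lower. Slc2a1, Pkm and Ndrg1 did not pass in any class, although all of their fold changes were below 0.

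The level of Pgk1 shows the pattern. Its placode-like sums were 38.3 and 24.8 CPM in the placode-enriched libraries, against 98.3 CPM in total epithelium, 42.0 and 23.01 against 71.4 CPM in basal-like cells, and 34.1 and 24.2 against 101 CPM in suprabasal-like cells. The placode-enriched libraries also differed from each other: in every class Pgk1 and Eno1 were higher in placode-enriched 1 than in placode-enriched 2. In these libraries Eno1 stood at 364 and 274 CPM for placode-like cells, 424 and 304 CPM in basal-like cells and 382 and 322 CPM in suprabasal-like cells. Within placode-like cells the dissociation and stress genes together reached 3183 and 2661 CPM when sorted on MAdCAM-1, against 3422 CPM in total epithelium, and the fibroblast sums given above were also lower, with 4 of 6 tested markers called lower. Their part in the result was not tested. With DESeq2 2 of the 7 genes were called in placode-like cells and 2 in basal-like cells. In placode-like cells low in G2 and M phase genes 1 was called, Ldha at -0.63, and the values of the others were -1.31 for Pgk1, -0.52 for Aldoa and -0.59 for Eno1. In placode-like cells without a UMI of 5 cell cycle genes edgeR called 0 of the 7, with 3 at an unadjusted p below 0.05, and the values were -1.03 for Pgk1, -0.58 for Aldoa, -0.55 for Ldha and -0.35 for Eno1. Such cells numbered 67 and 75 in the placode-enriched libraries and 10 in total epithelium, and fewer cells were not separated from the loss of cycling cells. With stricter class names 2 were called in suprabasal-like cells, Pgk1 at -1.77 and Aldoa at -0.78.

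**Figure D3:**
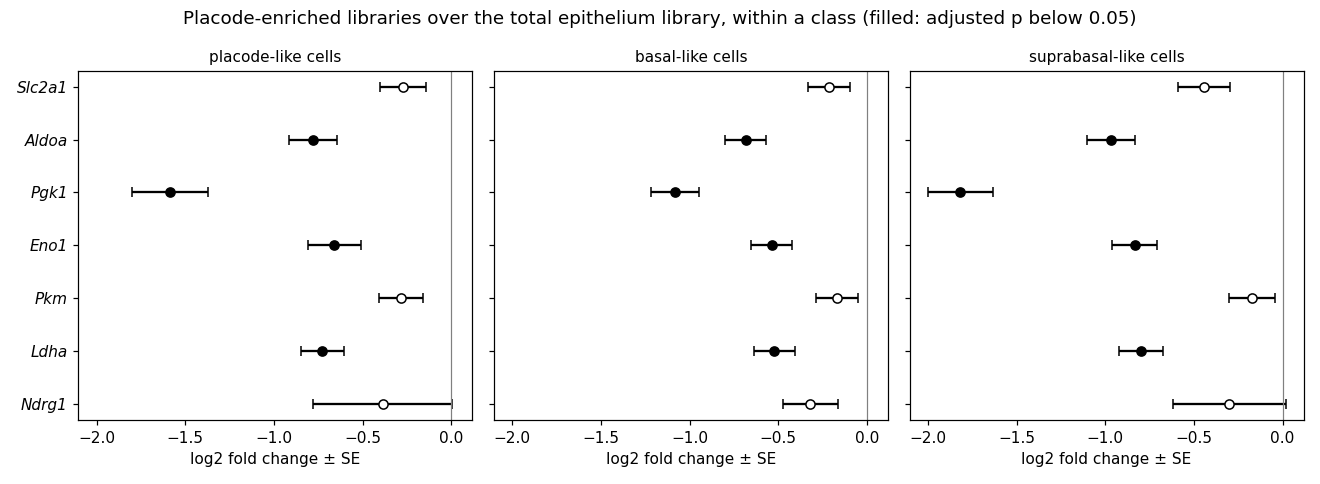
Log2 fold change of the placode-enriched over the total epithelium libraries with its standard error for the 7 genes within each class, with filled points for an adjusted p below 0.05. Aldoa, Pgk1, Eno1 and Ldha are filled in all 3 panels and Pgk1 lies farthest left, at -1.58, -1.08 and -1.82.

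The variance of log2 CPM over the 9 sums of 3 classes and 3 libraries separated the genes. Class held 92.2% of the variance of Ndrg1 and library 4.41%. For Pgk1 class held 0.579% and library 96.4%, and for Eno1 4.13% and 93.7%. Aldoa was 17.7% class and 81.3% library, Ldha 24.9% and 73.3%, Pkm 37.0% and 56.8%, and Slc2a1 54.2% and 39.7%. Library exceeded class for 5 of the 7 genes. With the total epithelium library left out, class held 79.0% for Aldoa, 97.6% for Ldha, 89.0% for Pkm and 77.4% for Slc2a1, and library exceeded class for Pgk1 and Eno1 alone, at 92.6% and 80.3%. The library share then rested on 2 libraries, while class kept 3 groups. Shares do not give the size of the variance. The standard deviation of log2 CPM for Pkm was 0.165 over the 9 sums and 0.086 without total epithelium. Over the 9 sums it was 0.828 for Pgk1 and 0.865 for Ndrg1.

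**Figure D4:**
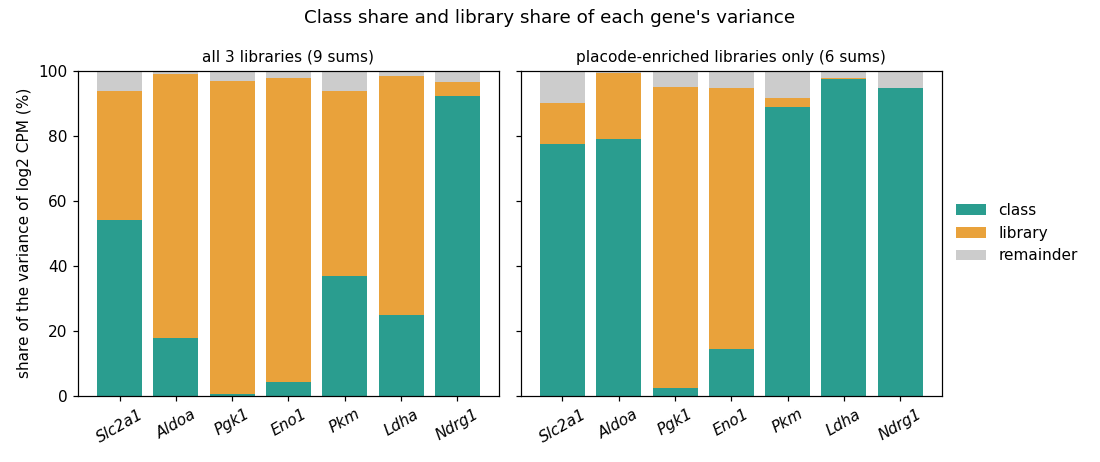
Share of the variance of log2 CPM held by class, library and remainder for each gene, over all libraries and over the placode-enriched libraries alone. Library holds 96.4% for Pgk1 and 93.7% for Eno1 at left, while class holds 92.2% for Ndrg1; at right Aldoa, Ldha, Pkm and Slc2a1 are mostly class.

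Summed over all kept cells, each of the 7 genes was lower in the placode-enriched libraries than in total epithelium, and the difference was divided into a part from the makeup of classes and a part within classes. The makeup part used the class levels of the total epithelium library weighted by the UMIs of the placode-enriched library's classes. Clusters inside a class were not weighted. The part within classes therefore also holds the differences in cluster makeup of the basal-like and suprabasal-like classes. For Ndrg1, at -0.81 in placode-enriched 1 and -0.97 in placode-enriched 2 on the log2 scale, the makeup part was -0.65 and -0.69 and the part within classes -0.15 and -0.29. For Pgk1, at -1.01 and -1.71, the makeup part was 0.16 and 0.17 and the part within classes -1.18 and -1.88. Aldoa was at -1.06 and -0.87 with a makeup part of -0.21 in both and within-class parts of -0.85 and -0.65. Pkm was nearly level, at -0.14 and -0.13, with a makeup part of 0.16 in both and a within-class part of -0.29 in both.

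Whether the class difference itself depended on the sort was tested as an interaction. In placode-like over basal-like cells only Pgk1 passed, at -0.47 ± 0.14 on the log2 scale (edgeR quasi-likelihood test, adjusted p = 0.0251), where 4.11% of genes were called, 1.04% higher and 3.07% lower. Within libraries its placode-like over basal-like ratio was -0.13 and 0.11 in the placode-enriched libraries and 0.46 in total epithelium on the log2 scale. In suprabasal-like over basal-like cells Aldoa at -0.33 ± 0.07, Eno1 at -0.32 ± 0.08, Ldha at -0.32 ± 0.07 and Pgk1 at -0.74 ± 0.17 passed in the same kind of fit (adjusted p from edgeR of 0.00022, 0.00123, 0.000103 and 0.000639), where 9.98% were called, 4.79% higher and 5.19% lower. DESeq2 called 0 of the 7 genes in both interactions, with 1 and 2 at an unadjusted p below 0.05. In suprabasal-like over basal-like cells edgeR also called 0 of the 7 with stricter class names, which leave out the cluster of 3 markers, with 1 at an unadjusted p below 0.05; the values were then -0.76 for Pgk1, -0.20 for Aldoa, -0.13 for Eno1 and 0.0633 for Ldha, whose direction turned. At resolution 2 edgeR called 0, with 1 at an unadjusted p below 0.05 and Ldha at 0.184. With cells thinned to 5000 UMIs it called 0, with 3 at an unadjusted p below 0.05 and values of -0.69 for Pgk1, -0.37 for Aldoa, -0.45 for Eno1 and -0.27 for Ldha. In placode-like over basal-like cells the Pgk1 value turned to 0.0933 with thinned cells.

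Within placode-like cells, cells were divided by UMIs of Shh, the ligand of placode cells, and Sox9, a transcription factor of hair follicle stem cell precursors. Cells with Shh only numbered 267, 310 and 32 in placode-enriched 1, placode-enriched 2 and total epithelium, cells with both 132, 157 and 7, cells with Sox9 only 232, 216 and 29, and cells with neither 221, 241 and 41. A Shh UMI was found in 46.8%, 50.5% and 35.8% of placode-like cells of these libraries, against 8.02%, 6.79% and 1.84% of basal-like cells, and a Sox9 UMI in 42.7%, 40.4% and 33.0%, against 42.0%, 43.8% and 12.8%. The bins were made from 3' UMIs of a droplet assay, so a cell with neither can still express either gene, and in the placode-enriched libraries the Sox9 share in placode-like cells was close to the share in basal-like cells, so that a Sox9 UMI did not set placode-like cells apart there. Median depths there were 19852 and 20920 UMIs in placode-like cells, against 32546 and 33598 UMIs in basal-like cells.

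Cells with Shh only were lower in Aldoa, Ldha, Slc2a1 and Eno1 than cells with neither, where 7.55% of the 11227 tested genes were called, 4.1% higher and 3.46% lower. Aldoa stood at 295, 337 and 493 CPM in Shh-only cells of placode-enriched 1, placode-enriched 2 and total epithelium, against 369, 439 and 706 CPM in cells with neither. Each library was lower in Shh-only cells (log2 fold change -0.39 ± 0.05; edgeR quasi-likelihood test, adjusted p = 5.95e-11). Ldha stood at 417, 443 and 666 CPM in Shh-only cells, against 533, 539 and 945 CPM (-0.37 ± 0.04; edgeR quasi-likelihood test, adjusted p = 8.22e-11). Slc2a1 stood at 103, 92.5 and 113 CPM, against 127, 121 and 145 CPM, with no overlap between the groups (-0.36 ± 0.07; edgeR quasi-likelihood test, adjusted p = 4.16e-05). Eno1 stood at 348, 252 and 468 CPM, against 371, 289 and 517 CPM (-0.15 ± 0.05; edgeR quasi-likelihood test, adjusted p = 0.0302). Pkm and Pgk1 were at 0.0026 and -0.03 on the log2 scale and did not pass. Ndrg1 stood at 3.47, 3.51 and 3.55 CPM, against 6.90, 3.85 and 9.08 CPM, and did not pass either. Its total epithelium values rested on 2 and 8 UMIs. In the edgeR fit 5 of the 7 genes were at an unadjusted p below 0.05, and 4 were called. Without placode-enriched 1 the calls of Slc2a1 (-0.39) and Eno1 (-0.19) were lost, and likewise without placode-enriched 2 (-0.32 and -0.12).

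Set against cells with Sox9 only, Shh-only cells were lower in the same 4 genes and in Ndrg1, where 12.8% of genes were called, 6.47% higher and 6.36% lower. Ndrg1 stood at 3.47, 3.51 and 3.55 CPM in Shh-only cells, against 11.8, 9.60 and 6.78 CPM in Sox9-only cells, with no overlap (log2 fold change -1.52 ± 0.27; edgeR quasi-likelihood test, adjusted p = 9.04e-06). In total epithelium these levels rested on 2 and 4 UMIs. Slc2a1 stood at 143, 139 and 183 CPM in Sox9-only cells, and the log2 fold change was -0.52 ± 0.07 (edgeR quasi-likelihood test, adjusted p = 7.57e-10). Without placode-enriched 1 the calls of Ndrg1 (-1.32) and Eno1 (-0.24) were lost, and without placode-enriched 2 that of Eno1 (-0.21). The S phase list moved with this comparison, with 11 of 15 genes lower and 0 higher in Shh-only cells, at sums of 1580, 1457 and 1666 CPM, against 2018, 1591 and 2507 CPM in Sox9-only cells. Of 4 tested fibroblast markers 2 were higher and 1 lower. Their part was not tested. In cells without a UMI of 5 cell cycle genes Aldoa at -0.79 and Ldha at -0.52 were called, of 6 genes tested. That fit had 24 and 28 Shh-only cells against 17 and 15 Sox9-only cells in the placode-enriched libraries. The 3 Sox9-only cells of total epithelium were too few to be used. Against cells with neither, Sox9-only cells were higher in Ndrg1 alone, at 0.85 ± 0.26 (edgeR quasi-likelihood test, adjusted p = 0.0353), where 4.26% were called, 2.08% higher and 2.17% lower. That call was lost without placode-enriched 1 (0.92) and without placode-enriched 2 (0.55). The total epithelium library did not share that direction, with 6.78 CPM in Sox9-only cells and 9.08 CPM in cells with neither.

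Cells with both were lower than cells with neither in Ldha, at -0.33 ± 0.05 (edgeR quasi-likelihood test, adjusted p = 2.07e-07), and Aldoa, at -0.26 ± 0.05 (adjusted p from edgeR of 0.000195), where 3.44% of genes were called, 1.83% higher and 1.6% lower. Both calls were lost without placode-enriched 1 (-0.28 for Ldha and -0.25 for Aldoa), and that of Aldoa (-0.27) without placode-enriched 2. S phase and G2 and M phase genes varied among the bins. The S phase list summed to 1580, 1457 and 1666 CPM in Shh-only cells of the 3 libraries, against 1773, 1548 and 2568 CPM in cells with neither, and the G2 and M phase list to 2903, 2382 and 1764 CPM, against 2690, 2765 and 2384 CPM. With only cells that had no UMI of Mki67, Top2a, Ccnb1, Cdc20 or Cenpf, 0 of the 6 genes that could be tested were called between Shh-only cells and cells with neither by edgeR, with 2 at an unadjusted p below 0.05 (Aldoa at -0.40 and Pkm at 0.22), where 19 genes in all were called. That fit had 24 and 28 Shh-only cells against 20 and 18 cells with neither in the placode-enriched libraries. Total epithelium had 2 cells with neither, too few to be used, so that library gave no contrast.

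The wider lists were also read in Shh-only cells over cells with neither, where 4.1% of all tested genes were higher and 3.46% lower. Of 16 tested glycolytic enzymes 0 were higher and 7 were lower, among them Pgam1 at -0.22 ± 0.04, Tpi1 at -0.14 ± 0.04 and Gapdh at -0.14 ± 0.03. Of the side branch genes 0 were higher and 4 lower, with the serine synthesis genes Psph at -0.73 ± 0.10, Psat1 at -0.50 ± 0.10 and Phgdh at -0.35 ± 0.05. Of 27 hypoxia response genes 0 were higher and 4 lower, with Selenbp1 at -0.74 ± 0.14 and the carbonic anhydrase Car12 at -0.36 ± 0.07, and the prolyl hydroxylase Egln3 was at -1.44 ± 0.42. These all passed edgeR's quasi-likelihood test at an adjusted p below 0.05.

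**Figure D5:**
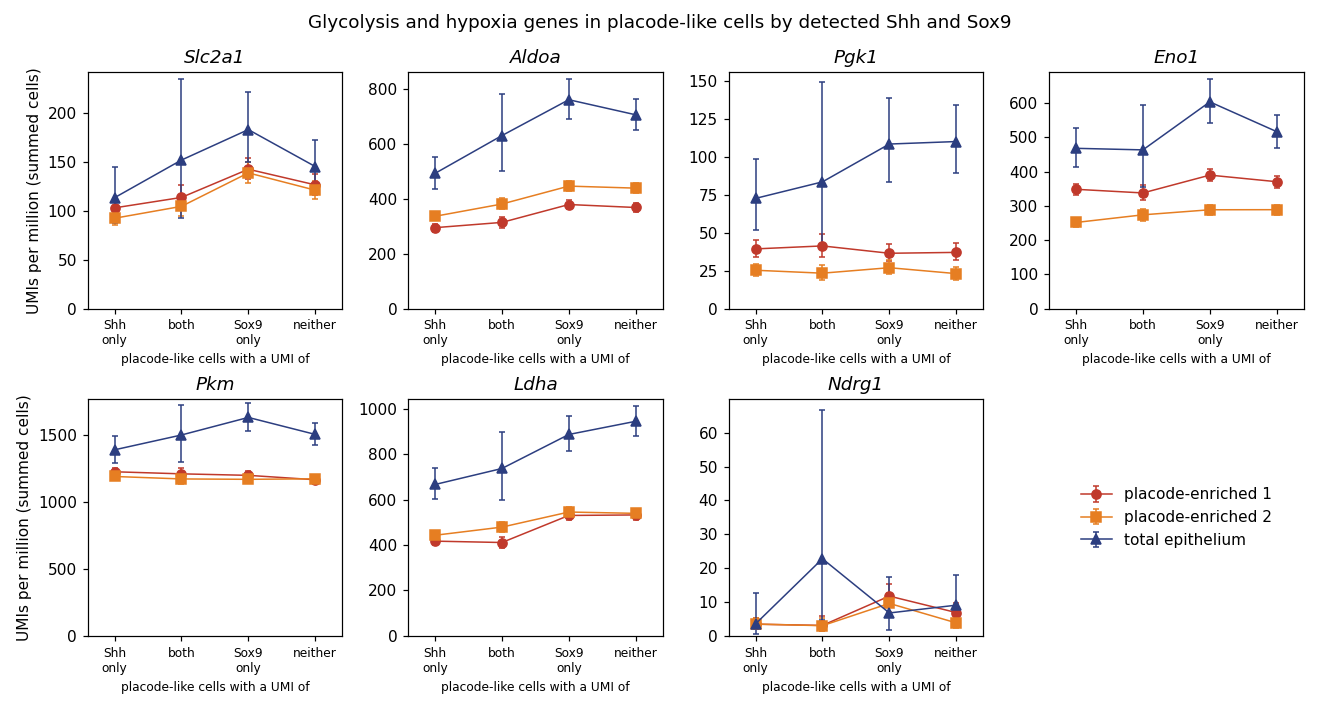
CPM in placode-like cells with a UMI of Shh only, both, Sox9 only or neither, for each gene and library, with bars for the 95% counting interval. Aldoa, Ldha and Slc2a1 stand lower in Shh-only cells than in cells with neither in all 3 libraries, and Pkm and Pgk1 are nearly level across bins in the placode-enriched libraries.

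Among the placode-like clusters, the cluster led by Shh and Fgf20 held 272, 337 and 373 CPM of Aldoa, against 396, 433 and 675 CPM in the cluster led by Wif1 and Bdnf, in placode-enriched 1, placode-enriched 2 and total epithelium. Ndrg1 was at 3.63, 3.16 and 13.0 CPM in the Shh cluster and at 12.5, 8.07 and 13.1 CPM in the Wif1 cluster, the total epithelium values resting on 4 and 8 UMIs. The remaining placode-like cluster, which met 9 of 9 markers, did not lie between them in total epithelium. There it held 725 CPM of Aldoa, above both, and 4.01 CPM of Ndrg1, below both and resting on 5 UMIs. Clusters were not tested against each other.

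The 7 genes did not share a single pattern over the 9 sums. Pairs rose and fell together most for Pgk1 and Eno1, with a Pearson r of 0.961, and for Aldoa and Ldha, at 0.916, while Pkm and Ndrg1 were at -0.299 and Pkm and Slc2a1 at -0.0528. These values describe sums that share libraries and classes, and their n is 9. Cell by cell, with each cell thinned to 5000 UMIs, Spearman values in all class and library groups lay between -0.168 and 0.288, weak values in sparse counts. The genes most like each member over the 9 sums, among 5501 compared, had Pearson r values of 0.955 to 0.988: Maoa for Slc2a1, U2af2 for Aldoa, Ccdc124 for Pgk1, D2Wsu81e for Ldha, Cib1 for Pkm, Rheb for Eno1 and Nudt1 for Ndrg1.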

How the data were processed

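The authors deposited 2 count tables holding integer UMIs for each cell, unnormalized by their values. Cell Ranger, Seurat and mm10 are named per the submitters' processing notes; for versions, annotation and strand setting, the sources used here say nothing. The number ending a barcode was taken as the placode-enriched library. The members and lists were chosen with earlier results of these data known.

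Doublets (19 cells) called with scrublet in scanpy 1.11.5 were removed, a small share, and others may be left among the cells. Leiden clusters (igraph 0.11.9, resolution 1) came from a fixed hash subset of 7368 genes without the listed genes and markers. A class needed 5 of 9 placode, 7 of 7 basal or 3 of 8 suprabasal markers, at 25%, 50% and 25% of the highest cluster, limits set after the clusters were seen. UMIs were summed per library and class or Shh and Sox9 bin, since cells are not replicates. Sums were tested with edgeR 4.0.16 in R 4.3.3 (quasi-likelihood test, TMM, filterByExpr, Benjamini-Hochberg adjustment over all genes tested, threshold 0.05), with the library as a block for class and bin comparisons; all classes of a library come from the same pool of embryos, which is what pairs them. DESeq2 1.42.0 was an alternative. The comparison of sorts and the interactions left 1 residual degree of freedom. In class and bin fits, with the library as a block, a gene's own spread is how the difference scatters across libraries. For sorts and interactions that spread comes from the placode-enriched pair alone. P-values rest on that spread as moderated in edgeR by a prior shared over genes. The prior weighs in the fits with 1 residual degree of freedom and also in the bin fits. Small p-values of the bins therefore do not measure a gene's scatter over the 3 libraries alone. The series' design text calls the placode-enriched pair biological replicates. The scripts were tested on simulated data. Depth per library was 34895848, 38640357 and 36921755 UMIs in placode-enriched 1, placode-enriched 2 and total epithelium, and intervals are exact Poisson at 95% and cover counting error only. Alternatives are given at the end. Named genes were the 7, up to 4 called genes per list and comparison, and the nearest genes by correlation.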

Additional observations from a re-analysis of the deposited data

Results flagged for a closer look

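Differences between classes that depended on the sort passed the test for 5 results, listed here for that reason. Pgk1 in placode-like over basal-like cells differed between the placode-enriched and total epithelium libraries by -0.47 on the log2 scale. In suprabasal-like over basal-like cells Aldoa differed by -0.33, Pgk1 by -0.74, Ldha by -0.32 and Eno1 by -0.32. These were tests of an interaction in edgeR with 1 residual degree of freedom, and the clusters that make up the classes differ between the libraries. Over 12 alternatives the suprabasal-like values ranged from -0.66 to -0.15 for Aldoa, -0.76 to -0.60 for Pgk1, -0.50 to 0.184 for Ldha and -0.47 to -0.05 for Eno1, and the placode-like value of Pgk1 from -0.50 to 0.0933. None of the 5 calls held with DESeq2, with thinned cells or at resolution 2.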

How the results depend on the processing

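The number of the 7 genes called was compared with the counts in the report, which were 6 (placode-like over basal-like), 1 (suprabasal-like over basal-like), 4 (placode-like over suprabasal-like), 4, 4 and 4 (placode-enriched over total epithelium in placode-like, basal-like and suprabasal-like cells), 1 and 4 (interactions), and 4, 1, 2 and 5 (Shh-only, Sox9-only and both over neither, and Shh-only over Sox9-only). Without the replicate block of the library, the counts were 2, 1 and 1 for the class comparisons, and 0, 0, 0 and 2 for the bins in that order. Leaving out each library in turn gave 3 to 6, 1 to 4 and 3 to 5 in the class comparisons and 2 to 4, 0 to 1, 0 to 2 and 3 to 5 in the bins; without placode-enriched 1 the first fell to 3, with Eno1, Ldha and Pkm not passing. DESeq2 gave 2 in placode-like over suprabasal-like, 2 in placode-like and 2 in basal-like cells for the sort, 0 in both interactions and 0 for Sox9-only. Thinning cells to 5000 UMIs gave 2 in placode-like over suprabasal-like, 0 in both interactions and 2, 0 and 3 for Shh-only over neither, Sox9-only over neither and Shh-only over Sox9-only.

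Suprabasal-like over basal-like counted 2 with total counts in place of TMM, with no filter on low counts, at resolution 2 and with stricter class names. Basal-like cells by sort counted 2 with no filter, and suprabasal-like cells by sort counted 2 at resolution 2 and with stricter names. The placode interaction counted 2 with RLE scaling, with total counts, at resolution 0.5 and with unnamed cells as basal, and 0 at resolution 2, with the other genes used to cluster and with unnamed as basal in cells low in G2 and M genes. The suprabasal interaction counted 2 with total counts and 0 at resolution 2 and with stricter names. Cells low in G2 and M genes gave 0 in placode-like over suprabasal-like, 1 by sort in placode-like cells, 0 in Sox9-only and 1 in both over neither. Cells without cell cycle UMIs gave 0 by sort in placode-like cells and 0, 0, 0 and 2 in the bins. The latter sums were small, with 10 placode-like cells in total epithelium, where only the Shh-only bin reached the 5 cells needed. Sox9-only over neither counted 2 with stricter names and 0 with detection thinned to 10000 UMIs, and both over neither counted 1 with 2 or more UMIs for a positive cell. Library exceeded class for 2 of 7 genes without total epithelium and for 2 to 6 over all leave-one-out settings.

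Called values that changed sign were Pgk1 in the placode interaction at 0.0933 with thinned cells, Ldha in the suprabasal interaction at 0.184 at resolution 2 and 0.0633 with stricter names, and in cells without cell cycle UMIs Eno1 at 0.10 (Shh-only) and Aldoa at 0.14 (both over neither); the cause was not tested. A further 97 values, not counted as reversals, of genes called in neither fit changed sign, the largest of them 0.458 on the log2 scale. Over all tested genes the number called ranged from 971 to 2712 in placode-like over basal-like (2089 in the report), 834 to 1950 in suprabasal-like over basal-like (1695), 759 to 2359 in placode-like over suprabasal-like (1931), 22 to 210, 229 to 1106 and 59 to 1051 by sort in placode-like, basal-like and suprabasal-like cells (102, 1103 and 795), 44 to 301 and 46 to 627 in the interactions (265 and 610), and 19 to 1357, 9 to 609, 0 to 700 and 86 to 2014 in the bins (848, 478, 386 and 1440). Leaving out a library in the comparison of sorts left no residual degrees of freedom and no test. Ndrg1 in placode-like over basal-like and in suprabasal-like over basal-like passed in all settings run. Alternatives limited to cells without cell cycle UMIs could not be run for class comparisons, for basal-like and suprabasal-like cells by sort or for the interactions, and those limited to cells low in G2 and M genes could not for basal-like comparisons without the unnamed cells, for want of cells. Depth limits Ndrg1 most, since some sums rest on under 10 UMIs.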
